A study of Mus musculus with 32 samples.

Results

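PRDM9 binding sites that carried a DMC1 signal but no H3K4me3 interval were examined in testes of B6 and RJ2 mice. These sites, named class 1c, were selected on the measured lists of each strain: a PRDM9 interval had to share at least 1 bp with the central 400 bp of a DMC1 interval and to be covered over less than 10% of its length by the H3K4me3 intervals common to both strains and over less than 10% by those specific to its own strain. The rule found 304 sites among 12722 PRDM9 intervals, 135 of 2601 in B6 and 169 of 10121 in RJ2, and the strains were kept apart throughout. Most sites with DMC1 carried strain-specific H3K4me3 instead (class 1a, 1650 sites in B6 and 6391 in RJ2) and served as the reference. The remaining classes were 1b (DMC1 and common H3K4me3, 72 and 270 sites), 1d (specific H3K4me3 without DMC1, 24 and 404), 2A (common H3K4me3 without DMC1, 460 and 438) and 2B (neither mark, 260 and 2449).

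PRDM9 is a meiotic histone methyltransferase whose zinc finger array reads a DNA sequence and whose SET domain trimethylates lysines of histone H3 on the neighbouring nucleosomes. SPO11 then makes DNA double-strand breaks at a small part of the marked sites, and DMC1 coats the single-stranded ends of those breaks, so a DMC1 interval centred on a PRDM9 site marks a recombination hotspot. H3K4me3 also lies at active promoters and some enhancers, where it does not need PRDM9.

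B6 mice are C57BL/6JOlaHsd and express PRDM9 Dom2. RJ2 mice, B10.MOLSGR(A)-(D17Mit58-D17Jcs11)/Bdm, carry PRDM9 Cst on a C57BL/10 background, so that the zinc fingers differ while most of the genome is alike. Knockout mice of the Spo11tm1M allele, which still express PRDM9 Dom2, and of the B6;129P2-Prdm9tm1Ymat/J line gave further PRDM9 lists, which the rule did not use. PRDM9 ChIP was made on whole testes pooled from several animals at 13 days post-partum, with 2 ChIP libraries for B6, RJ2 and Spo11KO and 1 for Prdm9KO, and DMC1 ChIP on whole testes at 5 weeks, with 2 libraries a strain. H3K4me3 came from pachytene cells that were elutriated from adult testes, with 1 library a strain, so the H3K4me3 list and the PRDM9 list of a site stem from different ages and cell populations, and their part in an absent interval was not tested. The lists give positions on build mm9 with no score, no read count and no value per replicate, and they hold no expression with which the tissue could be checked. Shares are therefore given with exact Clopper-Pearson intervals at 95%, medians with exact order-statistic intervals at 95%, both covering the sampling of sites and not the spread between mice, and no test was made between classes. Distances to H3K4me3 are those to the common list or to the list specific to the strain of the site, whichever is nearer, unless the list of the other strain is named.

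The DNA under the sites was read first, because the zinc finger motif is a feature that the rule did not use. A matrix of 36 bases was learned for each strain on class 1a sites of odd-numbered chromosomes only, from the seed word GCAGCACC in B6 and AGGTCACA in RJ2, and both strands of the central 200 bp of every interval were scored. A match was a score that 5% of the same windows reached after a move of 10 kb. Below are the 5 class 1c sites of B6 with the highest scores, each with 20 flanking bases on either side, written 5′ to 3′ on the strand of the matrix with the 36 matched bases in capitals and the nearest gene named. They are shown because they carried the PRDM9 Dom2 sequence at sites without an H3K4me3 interval.
B6, Prelp, chr1:135849345-135849420, minus strand: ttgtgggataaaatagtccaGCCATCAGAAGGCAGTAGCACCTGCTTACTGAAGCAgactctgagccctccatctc
B6, U6, chr5:70810600-70810675, minus strand: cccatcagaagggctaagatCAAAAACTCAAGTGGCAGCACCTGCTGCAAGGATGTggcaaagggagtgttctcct
B6, Cyp2r1, chr7:121721991-121722066, minus strand: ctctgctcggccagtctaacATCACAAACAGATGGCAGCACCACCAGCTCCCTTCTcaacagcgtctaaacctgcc
B6, 5330413P13Rik, chr2:131649429-131649504, minus strand: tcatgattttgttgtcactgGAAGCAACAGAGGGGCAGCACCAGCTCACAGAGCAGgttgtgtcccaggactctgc
B6, Dab2ip, chr2:35507803-35507878, minus strand: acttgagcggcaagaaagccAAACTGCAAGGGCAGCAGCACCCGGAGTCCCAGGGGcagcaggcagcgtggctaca

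Their scores ran from 20.8 to 23.0 and 4 of the 5 held the seed word within the capitals. In the PRDM9 list these 5 sites stood between place 1945 and place 2421 of 2601, that is, in its later part. The site near a U6 gene lay 578229 bp from the nearest H3K4me3 interval, the largest gap of all B6 members, and was also found in Spo11KO mice. Below are the 5 class 1c sites of RJ2 with the highest scores against the PRDM9 Cst matrix, in the same form.
RJ2, Gm11981, chr11:6614522-6614597, minus strand: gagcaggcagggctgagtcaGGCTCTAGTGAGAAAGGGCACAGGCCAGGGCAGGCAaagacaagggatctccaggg
RJ2, Frmd5, chr2:121393547-121393622, minus strand: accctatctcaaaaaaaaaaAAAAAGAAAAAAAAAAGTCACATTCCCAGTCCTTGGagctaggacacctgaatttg
RJ2, Gm12484, chr4:54091521-54091596, minus strand: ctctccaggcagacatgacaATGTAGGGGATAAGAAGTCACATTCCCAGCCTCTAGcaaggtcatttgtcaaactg
RJ2, Rnf2, chr1:153346053-153346128, minus strand: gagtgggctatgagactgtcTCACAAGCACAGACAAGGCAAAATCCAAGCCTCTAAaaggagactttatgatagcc
RJ2, Adamts20, chr15:93973606-93973681, plus strand: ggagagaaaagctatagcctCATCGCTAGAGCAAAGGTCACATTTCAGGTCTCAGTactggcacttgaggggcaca

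Scores of these 5 ranged from 21.7 to 23.7. The seed word stood within the capitals of 1 of the 5, the Adamts20 site. In contrast to B6 all 5 stood in the upper part of the list, from place 94 to place 2398 of 10121. The last of them lay 261105 bp from the transcription start of Adamts20, its nearest gene, which encodes a secreted metalloprotease, and was the first class 1c site of the RJ2 list. The RJ2 sites lay 120 to 543 bp from a common H3K4me3 interval. At the other end, the lowest score of each strain belonged to a site in an intron of Bop1, a ribosome biogenesis factor, and to one in an intron of Sumo3, a small ubiquitin-like modifier, and their best windows are given for contrast.
B6, Bop1, chr15:76303672-76303747, plus strand: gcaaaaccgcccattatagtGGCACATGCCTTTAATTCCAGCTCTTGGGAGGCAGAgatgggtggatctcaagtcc
RJ2, Sumo3, chr10:77071349-77071424, minus strand: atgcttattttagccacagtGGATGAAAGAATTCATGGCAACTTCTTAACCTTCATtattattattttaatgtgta

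The Bop1 site scored -4.24 and the Sumo3 site -1.49, against a median of 2.41 (B6) and 3.33 (RJ2) in moved windows, so neither window resembled the matrix of its strain. Over the members, 86 of 135 class 1c sites of B6 held a match (63.7%, interval 55.0 to 71.8%) and 102 of 169 of RJ2 (60.4%, 52.6 to 67.8%), where the same search called 42.1% of all B6 and 40.1% of all RJ2 intervals outside the learning set. Class 1a sites of the chromosomes not used for learning held one in 58.7% (55.3 to 62.0%) in B6 and 64.8% (63.1 to 66.5%) in RJ2, so that the intervals of both classes overlapped. Class 2B sites, which share the absence of H3K4me3 but have no DMC1, held a match in 19.6% (14.97 to 24.97%) and 7.02% (6.04 to 8.11%), and these intervals did not overlap those of class 1c. At the stricter limit that 1% of moved windows reach, 45.9% of B6 and 51.5% of RJ2 members kept a match, next to 40.9% and 53.7% in class 1a. The median GC content of the central 200 bp was 47.0% in B6 and 46.5% in RJ2 members, 45.0% in class 1a of both strains, and 43.5% and 45.0% in moved windows.

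**Figure D1:**
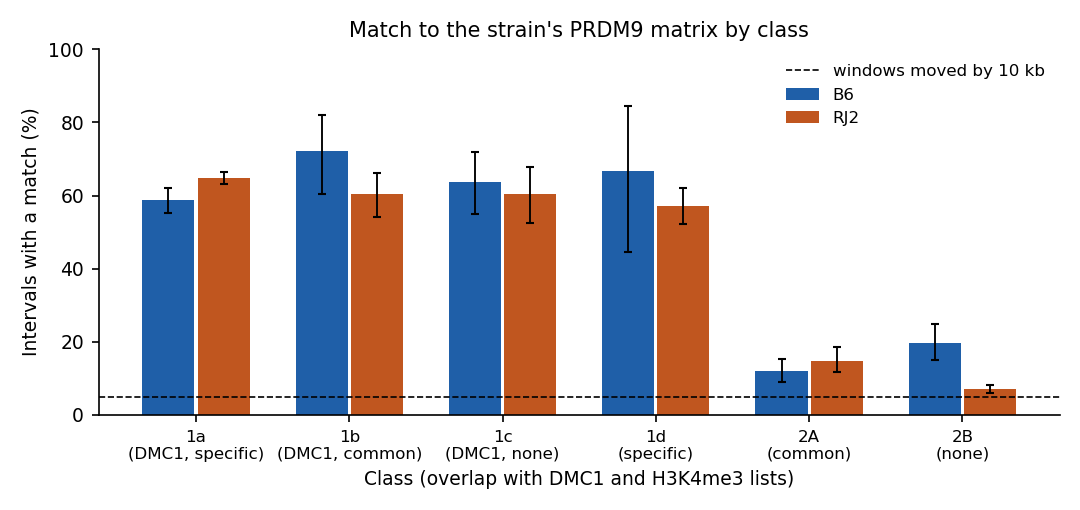
Share of intervals with a match to the PRDM9 matrix of their own strain in the central 200 bp (vertical axis, %) by class (horizontal axis), blue for B6 and orange for RJ2, with exact 95% intervals as error bars and the 5% of windows moved by 10 kb as a dashed line; class 1a is shown for chromosomes not used for learning. Class 1c stands at 63.7% and 60.4%, beside the other classes with DMC1 and above 2A and 2B.

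Only the central 200 bp was searched, so no match could lie far from the centre of the interval, and its distance is given as a description. The distance of the match from the centre had a median of 21 bp among B6 members and of 27.5 bp among those of RJ2, against 32 and 29 bp in class 1a. Within 50 bp lay 71 of 86 matches (82.6%) and 83 of 102 (81.4%). Class 1a gave 75.7% in both strains, class 2A 61.8% (B6) and 72.3% (RJ2), and class 2B 74.5% and 55.2%. The bare seed word was present in 12.6% (7.51 to 19.4%) of B6 members and in 10.1% (5.97 to 15.6%) of RJ2 members, against 0.461% and 1.23% of moved windows. In B6 class 1a the seed stood in 10.4% (8.40 to 12.6%), and in RJ2 class 1a in 6.11% (5.29 to 7.02%). The CTCF consensus, the site of an insulator protein, was found in 3 B6 members (2.22%, 0.461 to 6.36%) and 4 RJ2 members (2.37%, 0.649 to 5.95%). All B6 intervals held it in 7.07% and all RJ2 intervals in 1.98%, moved windows in 2.38% and 2.21%, and B6 class 2B in 43.5% (37.4 to 49.7%), so class 1c stood at the level of moved windows.

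Since absence of H3K4me3 was the rule, its margin is given as a description. Of the members, 130 in B6 and 160 in RJ2 had no base of the common or own specific H3K4me3 list. The other 5 and 9 touched a common interval at their edge. The members closest to the limit were covered over 8.37% (B6, an intron of the zinc finger gene Zfp961, chr8:74475520-74476391) and 7.05% (B6, near Gm10955, chr3:136634959-136635525), and over 9.93% (RJ2, 1500009L16Rik, chr10:83182121-83182563) and 9.43% (RJ2, Tmem87a, chr2:120197423-120197857). Just outside it stood class 1b sites with 17.8% (near a U4 gene) and 18.4% (Wnk4) in B6, and with 12.8% (Fbxl13) and 13.6% (Rai1) in RJ2. No member had a base of its strain's specific list, and only 2 B6 members and 0 RJ2 members were covered over 10% or more by the specific list of the other strain. The overlap with the central DMC1 part had a median of 338 bp in B6 and 375 bp in RJ2, with 42 and 27 bp as the lowest.

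The H3K4me3 intervals nearest to class 1c sites fell into a close and a distant group. The median gap was 13331 bp (9585 to 19654 bp) in B6 but 543 bp (395 to 811 bp) in RJ2. An H3K4me3 interval lay within 500 bp of 28 B6 members (20.7%, 14.3 to 28.6%) and of 80 RJ2 members (47.3%, 39.6 to 55.2%), which are called near members here, as opposed to 107 and 89 distant ones. A gap above 10 kb separated 78 B6 members (57.8%) and 47 RJ2 members (27.8%) from any such interval. Over all intervals this was 9.07% in B6 and 13.2% in RJ2. Class 2B sites, which also lack an overlapping interval, had such a gap in 60.8% (54.5 to 66.7%) and 52.6% (50.6 to 54.5%). They had an H3K4me3 interval within 500 bp in 6.92% (4.15 to 10.7%) and 5.23% (4.38 to 6.18%). The limit of 500 bp was chosen after the gaps were seen, and distant means only a gap above it. Of the distant members, 21 in B6 (19.6%) and 34 in RJ2 (38.2%) still had an H3K4me3 interval within 5 kb. All of class 2B, whatever the gap, gave 25% (19.9 to 30.7%) and 29.5% (27.7 to 31.3%).

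**Figure D2:**
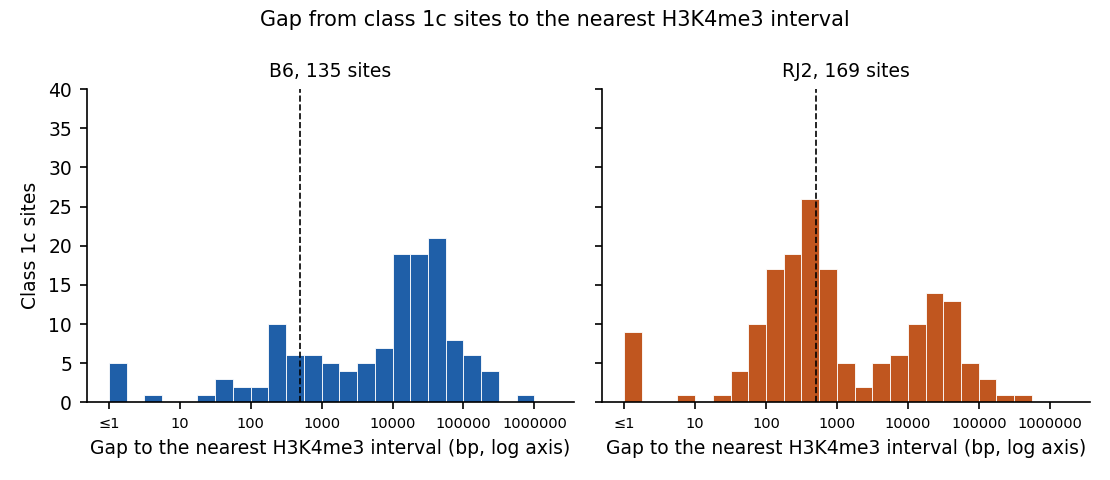
Number of class 1c sites (vertical axis) by the gap from the PRDM9 interval to the nearest H3K4me3 interval of the common list or of the strain's own list (horizontal axis, bp, log scale), for 135 B6 sites and 169 RJ2 sites, with a dashed line at 500 bp. RJ2 has 80 sites at or left of the line and B6 has 28, and a second group lies above 10 kb in both strains.

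Nearly all of the close intervals belonged to the list common to both strains. A specific interval stood within 500 bp of 3 B6 members, at Pex19, Acin1 and Gm2301, and of 5 RJ2 members, at Kpna6, Miat, Shroom4, Amelx and Npffr2. The nearest common interval reached into the DMC1 interval of its member at 28 of 28 near B6 members and at 73 of 80 near RJ2 members. Counted over all members this was 23.0% in B6 (16.2 to 30.98%) and 50.9% in RJ2 (43.1 to 58.7%), against 0.788% (0.420 to 1.34%) and 0.422% (0.279 to 0.614%) of class 1a sites, 4.96% of all B6 intervals and 4.14% of all RJ2 intervals. These shares are a description, because the rule used the same H3K4me3 lists: a class 1a site must be covered by a specific interval, which leaves less room for a common one. In the lists themselves, 980 of 10835 specific intervals of B6 (9.04%) and 1995 of 24185 of RJ2 (8.25%) lay within 500 bp of a common one. A common interval stood within 500 bp of 28 B6 members and 76 RJ2 members, and a transcription start lay in it or within 1 kb of it at 7 (25%, 10.7 to 44.9%) and 24 (31.6%, 21.4 to 43.3%) of them. Of all PRDM9 intervals with a common interval so close, class 2A included, 80.6% in B6 and 59.2% in RJ2 had a start there, and of class 1b sites 45.8% (34.0 to 58.0%) and 40.7% (34.8 to 46.9%). These common intervals had median widths of 996.5 bp (438 to 1751 bp) in B6 and 820.5 bp (488 to 1587 bp) in RJ2, against 1097 bp over the whole common list, and 2 of 28 (7.14%) and 12 of 76 (15.8%, 8.43 to 26.0%) were under 200 bp, against 4.68% of the list.

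The order of the PRDM9 lists is not positional, and the peaks were ranked by p-value when the lists were made. The place in the list was therefore read as a rank of strength, though the lists hold no score to check this. Since the place comes from the PRDM9 ChIP that chose the sites, it is given as a description. Class 1c sites of B6 stood lower than class 1a, with a median place at 64.6% of the list (52.8 to 72.0%) against 44.2% (41.9 to 46.1%). In RJ2 their median was 51.8% (35.4 to 62.5%) against 38.4% (37.3 to 39.5%). Near and distant members had different places. The 28 near B6 members had a median of 32.6% (18.6 to 52.8%) and the 107 distant ones of 71.4% (63.0 to 77.8%), and the 80 near RJ2 members of 27.8% (20.03 to 38.4%) and the 89 distant ones of 74.3% (66.3 to 78.0%). The intervals of near and distant members did not overlap in either strain, and the distant members stood below class 1a, while the intervals of near members and class 1a overlapped.

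**Figure D3:**
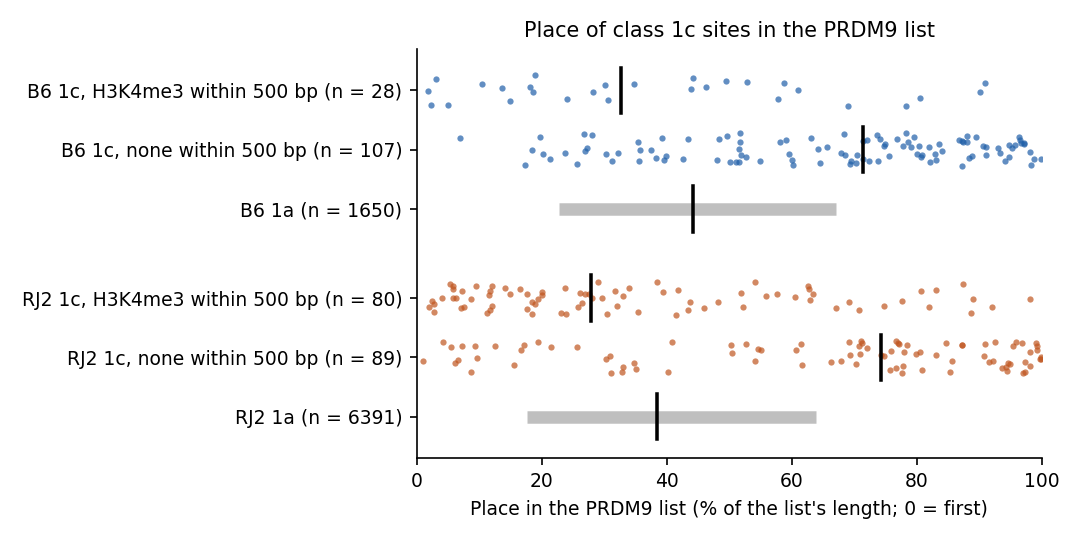
Place in the PRDM9 list as % of its length (horizontal axis, 0 is the first interval) for class 1c sites with an H3K4me3 interval within 500 bp and without one, each dot 1 site, spread vertically for view only, and for class 1a as a grey bar from the lower to the upper quartile; black bars are medians. Medians of near members are 32.6% (B6) and 27.8% (RJ2), those of distant members 71.4% and 74.3%.

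Divided into 5 equal parts from the first to the last interval, the B6 list held 14, 24, 24, 33 and 40 class 1c sites. As a share of the DMC1 sites of each part (classes 1a, 1b and 1c), this rose from 3.48% (1.92 to 5.77%) in the first to 14.98% (10.9 to 19.8%) in the last. The RJ2 list held 44, 30, 19, 36 and 40, with shares of 2.28% (1.66 to 3.05%) in the first, 1.44% (0.868 to 2.24%) in the middle and 4.74% (3.41 to 6.41%) in the last part. In RJ2 the first part was mostly near members, 30 of 44, and the last part mostly distant ones, 32 of 40. Motif matches rose or fell in no steady order in B6 class 1c, where they were found in 71.4, 62.5, 50, 66.7 and 67.5% of the members from the first to the last part, nor in RJ2, with 59.1, 56.7, 52.6, 66.7 and 62.5%, and all these intervals overlapped within a strain. Near and distant members held a match at 57.1% (37.2 to 75.5%) and 65.4% (55.6 to 74.4%) in B6, and at 58.8% (47.2 to 69.6%) and 61.8% (50.9 to 71.9%) in RJ2.

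Interval widths followed the place. PRDM9 intervals of class 1c had a median width of 422 bp (390 to 470 bp) in B6 and 541 bp (483 to 588 bp) in RJ2, against 511.5 bp (498 to 521 bp) and 595 bp (588 to 601 bp) in class 1a. Near members were wider, at 646.5 bp and 612 bp, than distant members, at 396 bp and 458 bp. The DMC1 interval at class 1c sites measured 1906 bp (1820 to 1968 bp) in B6 and 1702 bp (1640 to 1780 bp) in RJ2 at the median, against 2035 bp (2014 to 2050 bp) and 1796 bp (1788 to 1802 bp) in class 1a. Here too the near members had wider DMC1 intervals, 2173 bp and 1816 bp, than the distant ones, 1830 bp and 1592 bp. Between the centre of the PRDM9 interval and that of the DMC1 interval the median distance was 82 bp for members of B6 and 87 bp for members of RJ2, next to 81 and 87 bp in class 1a, a distance that the rule limits.

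The sites first in the list are given as examples. The first in B6, chr2:155060203-155061126 at place 47, lay between genes 1604 bp from the start of Dynlrb1, a dynein light chain, was the widest B6 member at 924 bp and had its motif match 45 bp from the centre. Its nearest common interval was 134 bp away and reached into its DMC1 interval of 2414 bp. The second, at place 61, was the Zfp961 intron site named above, and the third, at place 82, lay in a coding exon of A230051G13Rik on chr11:58974713-58975435. All 3 held a motif match and were found again in Spo11KO mice. In RJ2 the first 3 were the Adamts20 site (chr15:93973019-93974149, place 94), a site 12232 bp from Tmem177 (chr1:121796778-121798328, place 204) and one 3840 bp from Slc25a1, the mitochondrial citrate carrier (chr16:17923008-17924183, place 253). Each of these held a match, and each had a common interval close by, at 543 bp, at 257 bp and touching it, the second of these being only 76 bp wide. The last members, near Rai1 in B6 (place 2596, 240 bp wide) and in an intron of 2310008H04Rik in RJ2 (place 10109, 329 bp wide), held a match as well.

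Binding of PRDM9 Dom2 at class 1c sites of B6 was then looked up in Spo11KO mice, which form no double-strand breaks and whose libraries the rule did not use. The authors wrote that the smaller number of Spo11KO peaks could come from a less sensitive experiment, which was not tested here. A site missing from that list is thus only one without a listed peak. Of the 135 members, 37 (27.4%, 20.1 to 35.7%) overlapped one of the 1070 intervals of the Spo11KO list, where 35.5% of all B6 intervals did. The share was 51.5% (49.0 to 53.9%) in class 1a, 40.3% (28.9 to 52.5%) in class 1b, 1.92% (0.627 to 4.43%) in class 2B and 0% in class 2A. It followed the place in the list: from the first to the last of the 5 parts, 11 of 14, 11 of 24, 6 of 24, 7 of 33 and 2 of 40 members were found again. Class 1a fell in the same way, from 87.3% to 18.3%, and stood above class 1c in all 5 parts, although the intervals of both classes overlapped in each of the 5. Weighted to the places of class 1c by these 5 parts, the share of class 1a comes to 39.99%, which lies above the interval of class 1c. No interval was computed for this weighted share.

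**Figure D4:**
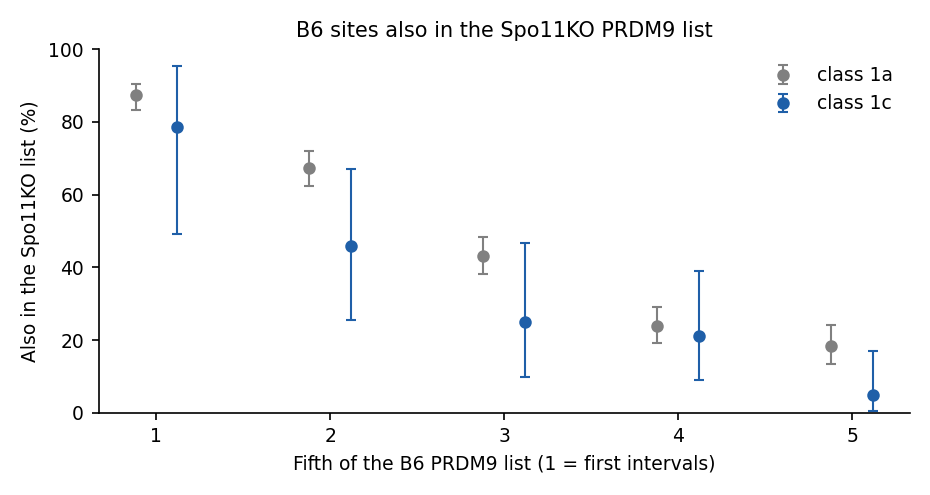
Share of B6 sites that overlap an interval of the Spo11KO PRDM9 list (vertical axis, %) in 5 equal parts of the B6 PRDM9 list (horizontal axis, 1 holds the first intervals), grey for class 1a and blue for class 1c, with exact 95% intervals. Both classes fall from the first to the last part, class 1c from 78.6% to 5.00% and class 1a from 87.3% to 18.3%.

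Near members of B6 were found in Spo11KO mice in 14 of 28 cases (50%, 30.6 to 69.4%) and distant members in 23 of 107 (21.5%, 14.1 to 30.5%), the near members standing higher in the list. Members found again held a match in 70.3% (53.0 to 84.1%) and the others in 61.2% (50.8 to 70.9%). The Dynlrb1 site took place 28 of the Spo11KO list, the A230051G13Rik site place 65 and the Zfp961 site place 997. Of the 169 RJ2 members, which PRDM9 Cst bound, 2 overlapped the Spo11KO list of PRDM9 Dom2, both at the very start of the assembled chromosome 11 (chr11:3000054-3000567 and chr11:3001132-3002557, near Pisd-ps1). These were also the closest pair of RJ2 members, 1534 bp between centres, held no motif match, and had 81% and 83.8% unique words of 36 bases. They stood at places 983 and 736 of the RJ2 list and at places 292 and 57 of the Spo11KO list. No member of either strain overlapped the Prdm9KO list, against 2 of all B6 intervals (0.0769%) and 252 of all RJ2 intervals (2.49%), most of the latter in class 2B. By their methods the authors had removed such peaks, so this is a description. The interval of 0 reaches up to 2.70% in B6 and 2.16% in RJ2, which covers the 0.0606% and 0.188% of class 1a.

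The rule did not use the DMC1 intervals of the other strain, but its common and specific H3K4me3 lists compare the strains. Overlap with those DMC1 intervals is therefore given as a description. It was found at 21 RJ2 members (12.4%, 7.86 to 18.4%) against 68 of 6391 class 1a sites (1.06%, 0.827 to 1.35%), and at 5 B6 members (3.70%, 1.21 to 8.43%) against 8 of 1650 (0.485%, 0.210 to 0.953%), where all RJ2 intervals gave 1.54% and all B6 intervals 1.0%. In class 1b the share was 11.9% (8.25 to 16.3%) in RJ2, close to class 1c, but 15.3% (7.88 to 25.7%) in B6, above class 1c with intervals that overlapped only at their ends. The central 400 bp of a DMC1 interval of the other strain was touched by 0 B6 members (0 to 2.70%) and 2 RJ2 members (1.18%, 0.144 to 4.21%). All B6 intervals gave 0.192% and all RJ2 intervals 0.662%, which the intervals of the members cover. An H3K4me3 interval stood within 1 kb of 18 of the 21 RJ2 members with any such overlap and of 4 of the 5 B6 members. Among all members it did so at 104 of 169 in RJ2 and 36 of 135 in B6. Of all intervals, classes with H3K4me3 by rule included, 76.2% in RJ2 and 86.6% in B6 had one within 500 bp. Any overlap with a B6 DMC1 interval was found at 20% (11.9 to 30.4%) of near RJ2 members and 5.62% (1.85 to 12.6%) of distant ones. The common interval beside the member overlapped the central 400 bp of a DMC1 interval of the other strain at 11 RJ2 members (6.51%, 3.29 to 11.3%) and 4 B6 members (2.96%, 0.813 to 7.41%), against 0.455% of all RJ2 and 0.50% of all B6 intervals. Class 1b stood above the members in this, at 11.1% (7.62 to 15.5%) and 9.72% (3.999 to 19.0%), with overlapping intervals. PRDM9 intervals present in both strains had been removed, and none of either list overlapped one of the other. An interval of the other strain lay within 1 kb of 4 RJ2 members (2.37%, 0.649 to 5.95%), against 0.296% of all RJ2 intervals, and of 2 B6 members (1.48%, 0.180 to 5.25%), near the 1.15% of all B6 intervals. At Tnik, which encodes a Ste20-family kinase, class 1c sites of both strains lay 524 bp apart, the B6 site at chr3:28474788-28475108 with a match of score 20.3 and the RJ2 site at chr3:28473833-28474263 with a score of 7.67, below the limit for a match.

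The 2 RJ2 members that touched the central 400 bp of a B6 DMC1 interval both lay on distal X. The first, chrX:166416910-166422228 in Gm15726 and Mid1, was the widest member of all at 5319 bp, and the second, chrX:166426955-166427260, lay in a coding exon of Mid1, the gene that spans the pseudoautosomal boundary in laboratory mice. The wide first member overlapped 600 bp of such central parts, and its centre lay 1819 bp from that of its own DMC1 interval. Neither member held a motif match in its central 200 bp (scores 3.06 and 6.91), the only part searched, and the nearest H3K4me3 intervals were 51029 and 61074 bp away. Chromosome X held 9 of 169 RJ2 members (5.33%, 2.46 to 9.87%), against 1.80% (1.49 to 2.16%) of class 1a and 1.56% of all RJ2 intervals. It held 4 of 135 B6 members (2.96%, 0.813 to 7.41%), against 2.18% (1.53 to 3.01%) of class 1a and 2.0% of all B6 intervals, which the interval of the members covers. The 4 B6 members on X, near 1700003E24Rik, Gm5764 and Gm14794 and in an intron of Col4a6, all held a motif match, and all 4 were found in Spo11KO mice. On all chromosomes, 42.1% of B6 intervals outside the learning set held a match and 35.5% of all B6 intervals were found in Spo11KO mice. These shares were not computed for X alone. Of the 9 RJ2 members on X, 6 held a match, among them sites in introns of Dmd (score 21.6) and Frmpd4 (score 21.1) whose nearest H3K4me3 intervals were 449750 and 85288 bp away. The Dmd gap was the largest of all RJ2 members.

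H3K4me3 lies at active promoters and the rule leaves out sites covered by it, so nearness to transcription starts is given as a description. Of the B6 members 8 (5.93%, 2.59 to 11.3%) and of the RJ2 members 12 (7.10%, 3.72 to 12.1%) were centred within 1 kb of a transcription start, where 20.4% of all B6 and 9.82% of all RJ2 intervals were. The interval of the RJ2 members covered the share of all RJ2 intervals. Class 1a stood at 4.30% (3.38 to 5.40%) and 4.08% (3.61 to 4.60%), and class 2A at 88.5% and 67.6%. Within 5 kb of a start were 20.7% (14.3 to 28.6%) of B6 members and 35.5% (28.3 to 43.2%) of RJ2 members, against 17.2% (15.4 to 19.1%) and 16.9% (16.0 to 17.9%) of class 1a, so the intervals of RJ2 did not overlap. All intervals gave 32.6% in B6, above the members, and 25.3% in RJ2, below them. The median distance to a start was 11598 bp (8374 to 17786 bp) in RJ2 members and 24110 bp (22995 to 25248 bp) in RJ2 class 1a. In B6 it was 19698 bp (13960 to 28375 bp) and 23272 bp (21317 to 25609 bp).

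The B6 members at starts were at Zfp961, Gm13042, Rab27b, Gm14794, Sned1, Rgs19, Pias3 and Gm14464. Rab27b encodes a GTPase of vesicle secretion, Rgs19 a regulator of G protein signalling and Pias3 a SUMO ligase. Of these 8, 6 held a motif match, and the sites at Pias3 and Gm14464 did not. The Gm13042 site, 123 bp from the start with a score of 20.3, and the Gm14464 site were 46454 and 157483 bp from the nearest common or B6-specific H3K4me3 interval, and 4741 and 62281 bp from the nearest RJ2-specific one. The first 10 of RJ2 were at Rsph10b2, Mia2, Trpc2, Nup62, Nacc2, Mrpl3, Rhbdf1, Acbd4, Astn2 and Sfpi1. Nup62 is a nuclear pore protein, Mrpl3 a mitochondrial ribosomal protein and Sfpi1 the myeloid transcription factor PU.1. Matches were held by 4 of these 10, at Nup62, Nacc2, Mrpl3 and Acbd4. The Mia2 site was 28 bp from an annotated start, 712 bp from the nearest H3K4me3 interval and without a match.

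Within genes, 53 B6 members (39.3%) and 85 RJ2 members (50.3%) were centred in introns, near the 39.1% and 48.9% of all intervals. In exons were 14 B6 members (10.4%, 5.79 to 16.8%), near the 10.5% of all B6 intervals, and 18 RJ2 members (10.7%, 6.44 to 16.3%), against 5.85% of all RJ2 intervals. Class 1a stood at 5.76% (4.68 to 6.99%) and 4.55% (4.06 to 5.09%), and its interval overlapped that of class 1c in B6 but not in RJ2. Of the exonic members, 7 in B6 and 6 in RJ2 lay in coding exons and 2 and 11 in UTR exons. The first in B6 was the A230051G13Rik site, followed by a coding exon of Pex19, which imports peroxisomal membrane proteins, a noncoding exon of Acin1, a splicing-associated protein, and the Gm13042 and Rab27b sites. In RJ2 the first were in a UTR of Krt77, a keratin, in a coding exon of Mia2, and in UTRs of Kpna6, an importin, Trp53inp2, an autophagy factor, and Prkca, a protein kinase C. The closest pair of B6 members lay in coding exons of the neighbouring genes Slc26a11 (chr11:119235917-119236297) and Rnf213 (chr11:119271153-119271819), 35379 bp apart, and both held a match. A list of 66 genes of meiotic recombination and the synaptonemal complex, 53 of which are named in the annotation, had 0 members of either strain inside a gene or within 5 kb of one. Of all intervals 11 of 2601 in B6 (0.423%) and 12 of 10121 in RJ2 (0.119%) were there, so 0 among so few members lies near this background.

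Because the lists rest on uniquely mapped reads, the uniqueness of the sequence was measured beside the absence of H3K4me3. In every class the median share of words of 36 bases that occur once in the genome was 100%. A share under 90% was found at 4 B6 members (2.96%, 0.813 to 7.41%) and 13 RJ2 members (7.69%, 4.16 to 12.8%), against 5.94% (4.85 to 7.19%) and 5.40% (4.86 to 5.98%) of class 1a and 6.50% and 6.76% of all intervals. The lowest B6 member, in an intron of 1700082M22Rik (chr8:107178288-107178856), had 71.2%, and the lowest RJ2 member, near Shroom4 (chrX:6249288-6249634), had 50%. With words of 100 bases, a share under 90% remained at 0 B6 members and 1 RJ2 member. The intervals of class 1c and class 1a overlapped in both strains. Repeat annotation was not used here.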

How the data were processed

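ChIP-seq of PRDM9, DMC1 and H3K4me3 was made on mouse testes. The authors aligned reads to mm9, discarded duplicates and reads with several places, called peaks by MACS, kept as many PRDM9 and DMC1 peaks as the irreproducible discovery rate allowed, and, by their methods, removed PRDM9 peaks seen in Prdm9KO or in both strains. The deposited lists still hold 252 RJ2 intervals (2.49%) and 2 B6 intervals that overlap the deposited Prdm9KO list, which were kept, and the cause was not tested. For H3K4me3 they kept peaks found with all reads, with duplicates removed and with uniquely placed reads alike. They deposited 9 lists of peak positions, pooled over replicates, with no score, signal, count or depth, and 22 of 32 samples lie behind them. The 10 samples of H3K36me3 and the H3K4me3 lists of other studies, with which the authors refined their classes, were left out.

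No interval of the lists was dropped, and overlap sorted the sites into classes. Sequence came from NCBIM37, whose chromosome lengths equal mm9, and genes from its GENCODE annotation. Matrices were built from a seed word of 8 bases in 3 rounds of realignment, and a CTCF match allowed 1 mismatch to its consensus. Covered lengths, the motif search and word counts were tested on simulated data. The named sites are the 3 first and the last in the PRDM9 list, the widest, those at starts (at most 10) or in exons (at most 5), the 5 highest and the lowest score, the 3 first in Spo11KO, those beside the limit, the least unique, the closest pair and any at a meiosis gene. Sites shown for the other strain's DMC1, for X and at Tnik were chosen after their values were seen, and the members and lists were chosen with earlier results of these data known. Alternatives changed the class rule, the members used, the motif search and the distances. Python 3.11.15, numpy 2.4.6, scipy 1.17.1 and pandas were used.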

Additional observations from a re-analysis of the deposited data

How the results depend on the processing

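Of 70 recomputed values, 57 stayed within the interval of the reported value, or, for counts, within 1.5 times of it. In RJ2, a limit of 50% cover raised the number of class 1c sites from 169 to 255, and asking for no H3K4me3 within 500 bp lowered it to 89. A limit of 250 bp left 48 near RJ2 members and a limit of 1 kb gave 104. In B6 these settings gave 162, 107, 22 and 36. The share with a motif match fell to 45.9% (B6) and 51.5% (RJ2) at the limit of 1%, and rose to 75.1% in RJ2 when the whole interval was searched, which scans more positions. A matrix of 24 bases, chosen after seeing the data, gave 65.2% and 56.2%. Within 5 kb of a start in place of 1 kb stood 20.7% (B6) and 35.5% (RJ2). Among members in the upper 50% of the list, the B6 share in Spo11KO was 51.1%. The share in a DMC1 interval of the other strain dropped to 0% (B6) and 1.18% (RJ2) at its central 400 bp, and to 5.62% in RJ2 without near members. Around 1 kb the median share of unique words in B6 was 99.8%. No paired analysis was possible because the lists pool the replicates, and leaving out a replicate could not be run for the same reason. Repeat-masked shares were not run, since the sequence used marks no repeats. Depth per site is unknown, so an absent H3K4me3 interval says only that the lists hold none there. The narrowest common interval nearest to a class 1c site measured 1 bp in B6 and 11 bp in RJ2. The authors kept the intersection of several H3K4me3 peak calls, so listed intervals may be parts of wider called peaks, which was not tested.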

Other observations

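Among the common intervals nearest to class 1c sites some were narrow: the one beside the Tmem177 site measured 76 bp and the one beside the Trpc2 site 36 bp. By chromosome, the class 1c share of the B6 DMC1 sites was lowest on chromosome 15 (1.54%, 1 of 65, interval 0.0389 to 8.28%). It was highest on chromosome 18 (15.5%, 9 of 58, interval 7.35 to 27.4%). In RJ2 the lowest was chromosome 19 (0.552%, 1 of 181, interval 0.0140 to 3.04%) and the highest X (7.03%, 9 of 128, interval 3.27 to 12.9%). These are extremes picked from all chromosomes. Over all of them, B6 had 135 class 1c sites beside 1650 of class 1a and 72 of class 1b. RJ2 had 169 beside 6391 and 270.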
